A study of Mus musculus with 18 samples.

Results

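The livers compared here come from 10 Old mice, divided by the labelled flux through citrate synthase in the liver. They are 10 of the 18 livers of a study of how the liver of young and of aged mice answers insulin. The labels give a liver citrate synthase flux for each mouse, and the 5 mice with a value of 2.83 or more (M5, M6, M9, M14 and M18) were set against the 5 with a lower value (M7, M8, M15, M16 and M17). The same division separates the mice by basal insulin, above and below a label value of 15, so flux and basal insulin cannot be told apart in the groups. The lowest mouse of the high-flux group (M9) had a flux of 2.83 and the highest of the low-flux group (M7) had 2.74.

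All 18 animals were male C57BL/6J mice, an inbred laboratory strain, bought from Jackson, and the labels name no transgene or drug. Per the age labels the Old mice were 19.76 and the 8 Young mice 6.18 months old, while the design text rounds the Old age to 20 and the growth protocol gives 21 months. Every mouse had fasted overnight for 14 hours and then received insulin for 150 minutes in a hyperinsulinemic-euglycemic clamp. Glucose is given during a clamp at whatever rate keeps blood glucose steady. The liver was frozen straight after, so both flux groups and the Young livers are insulin-infused livers and none without insulin was compared. RNA was extracted with either of 2 kits. The high-flux group has 3 AllPrep and 2 RNeasy livers, the low-flux group 2 AllPrep and 3 RNeasy livers. The 2 RNeasy high-flux livers are M6 and M14. Values for RNeasy livers without M14 thus set M6 alone against M15, M16 and M17.

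Citrate synthase joins acetyl-CoA to oxaloacetate in the first step of the citric acid cycle, in the mitochondrial matrix. In the fasting liver most acetyl-CoA comes from fatty acid oxidation, and a smaller part comes from pyruvate through pyruvate dehydrogenase, which pyruvate dehydrogenase kinases such as Pdk4 hold back. Flux through such enzymes is set by substrates, products and protein modification as well as by the amount of enzyme, and transcript level is only one of the inputs to the amount.

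Whole reads could be recovered from the deposited values. They came to 90081467 to 119785972 reads per high-flux liver, 95070698 to 127000035 per low-flux liver and 85790735 to 127487820 per Young liver, so the groups were sequenced to a like depth. Alb, Apoa1, Ttr and the other 7 hepatocyte markers were present in every liver, with a summed level of 98000 to 145000 in the high-flux and 104000 to 146000 in the low-flux group, in TPM (read counts per gene length, brought to the same total in each library) after scaling between libraries. The liver of M14, a high-flux mouse, stood apart. Its Spearman correlation with the other 9 Old livers across genes was 0.913 to 0.944, against 0.944 to 0.99 among those 9, and among the 9153 genes whose mean log2 level reached 2 it was the highest of the 10 livers in 1397 and the lowest in 3663. Genes chosen after their values were seen show how far it lay from the rest. Cyp2e1, a pericentral cytochrome, was at 1580 scaled TPM in M14 and at 7380 to 15900 in the other 9. Oat, a pericentral aminotransferase, was at 131 against 581 to 1670. Apoa4, an apolipoprotein, was at 14800 against 389 to 2470. The extraction kit divided the other livers. On the second principal component kit accounted for 0.88 of the variance (R2) and flux group for 0.00143. In the model below 647 of the 13880 genes tested passed the threshold for kit, 166 higher and 481 lower with AllPrep. Kit is therefore a term in the models of both kits, and the difference of each gene named between the flux groups is given with and without M14.

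**Figure D1:**
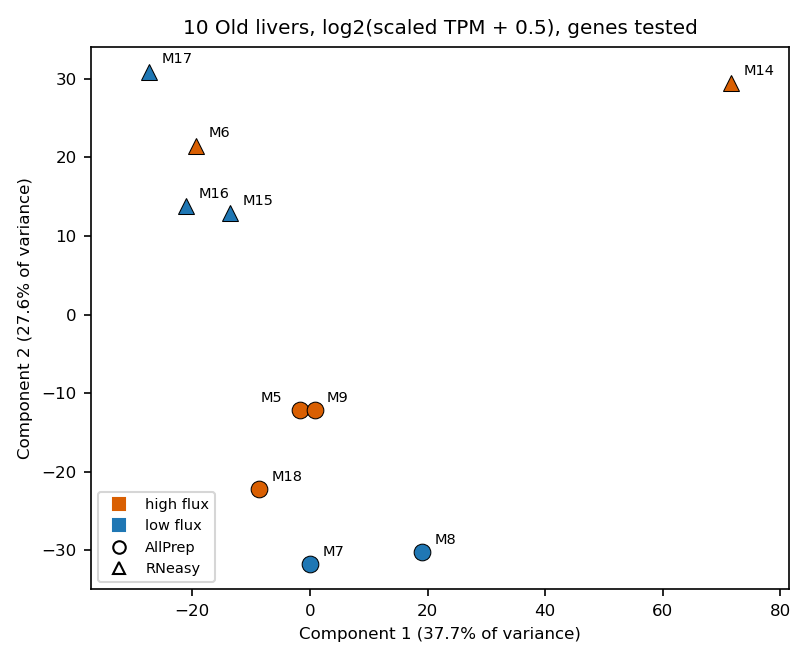
The 10 Old livers on the first 2 principal components of log2(scaled TPM + 0.5) over the genes tested; colour gives the flux group and shape the extraction kit. M14 lies at 71.6 on component 1, away from the other 9, and component 2 separates the kits. On component 2 the AllPrep high-flux livers lie at -22.2 to -12.2 and the low-flux ones at -31.8 and -30.2. The RNeasy high-flux livers lie there at 21.5 and 29.4, within the range of the low-flux ones, 12.9 to 30.9.

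The traits of the mice come first, since they define the groups. Citrate synthase flux was 3.03, 3.28, 2.83, 3.38 and 3.01 in the high-flux mice M5, M6, M9, M14 and M18, and 2.74, 2.26, 2.17, 2.54 and 2.68 in the low-flux mice M7, M8, M15, M16 and M17, in label units that the labels do not name. Young mice had 3.29 to 4.26, so only M14 among the Old mice lay within the Young range. Basal insulin was 23.48, 15.66, 28.21, 15.67 and 17.09 in the high-flux mice and 12.90, 14.36, 10.42, 13.58 and 14.26 in the low-flux mice. The higher values thus belonged to the same 5 mice, and M5 and M9 were well above the other 3. These values chose or accompany the groups and have no test. The labelled fatty acid oxidation flux equals citrate synthase flux less pyruvate dehydrogenase flux to within 0.005, so it follows the division too: it was 2.80 ± 0.217 (SD, n = 5) in the high-flux and 2.26 ± 0.253 (SD, n = 5) in the low-flux mice. Pyruvate dehydrogenase flux, a small part of the total in both groups, was 0.167 to 0.351 in the high-flux and 0.174 to 0.270 in the low-flux mice. Within the high-flux group M5 had the lowest value of all 10.

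**Figure D2:**
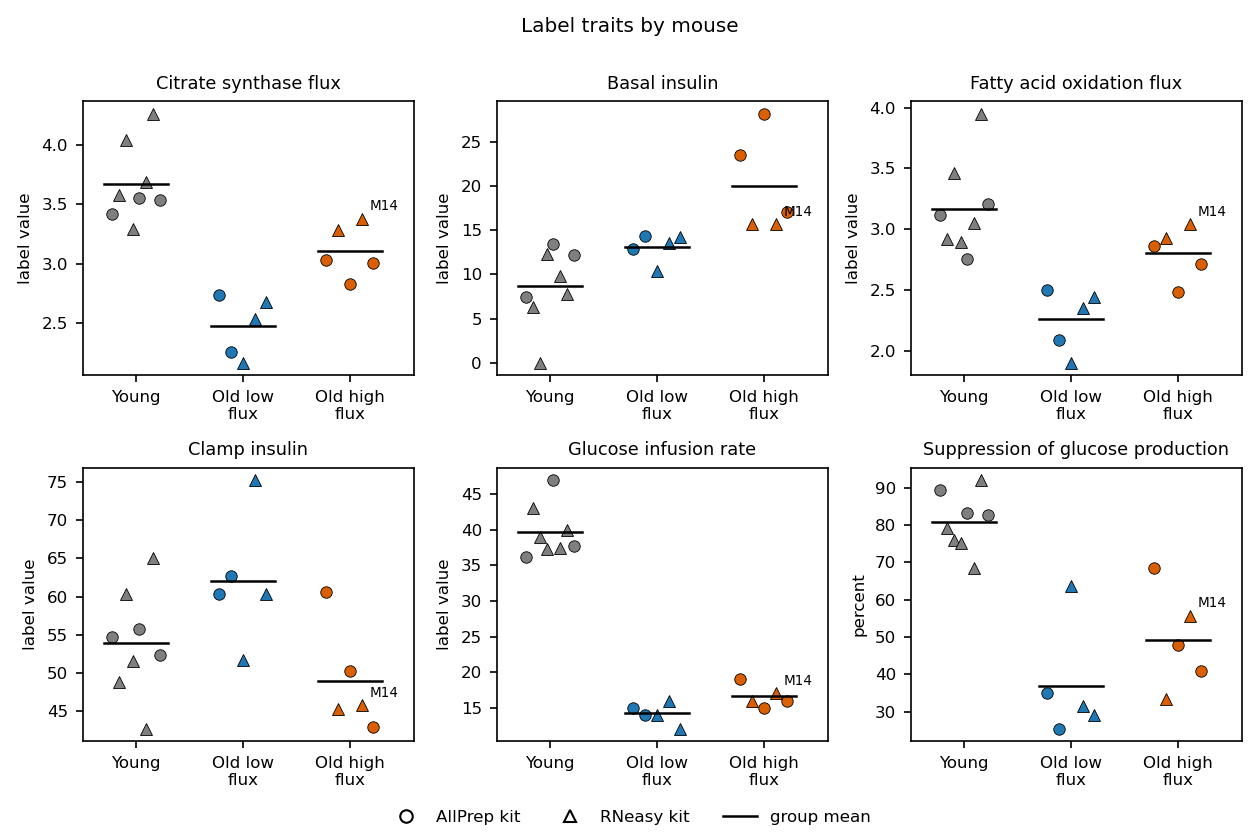
Label traits by mouse in Young, Old low-flux and Old high-flux mice; circles are AllPrep and triangles RNeasy livers, and the line is the group mean. Citrate synthase flux and basal insulin do not overlap between the Old groups because they define them, whereas clamp insulin, glucose infusion rate and suppression of glucose production overlap.

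The 13 other traits were tested with two-sided exact permutation tests, and none of them differed after Benjamini-Hochberg adjustment over the 13 traits. The smallest p that 5 mice against 5 can give is 0.00794, from 252 regroupings. Insulin during the clamp was 60.61, 45.26, 50.28, 45.72 and 42.89 in the high-flux mice, and 60.31, 62.74, 51.69, 75.28 and 60.32 in the low-flux mice. The mice with the higher basal insulin thus had, apart from M5, clamp insulin below every low-flux mouse. The means were 49.0 ± 7.04 and 62.1 ± 8.5 (SD, n = 5 each), and did not differ after adjustment (exact permutation p = 0.0317, adjusted p = 0.361). The glucose infusion rate, a measure of the whole body's insulin action, was 15 to 19 in the high-flux and 12 to 16 in the low-flux mice, again short of the threshold (exact permutation p = 0.0556, adjusted p = 0.361). Both groups lay far below the Young range of 36.25 to 47.

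Hepatic insulin action overlapped between the groups. Glucose production was suppressed by 68.4%, 33.3%, 48.0%, 55.7% and 40.8% in the high-flux mice and by 35.0%, 25.4%, 63.6%, 31.6% and 29.2% in the low-flux mice (exact permutation p = 0.222, adjusted p = 0.495). The low-flux mouse M15 was suppressed nearly as far as the best high-flux mouse, M5. Basal glucose production was 17.9 ± 0.833 against 16.5 ± 1.42 (SD, n = 5 each), with an exact permutation p of 0.0952. Clamp glycerol turnover, a measure of fat breakdown, was 48.4 to 55.8 in the high-flux and 30.6 to 61.3 in the low-flux mice (exact permutation p = 0.206), and liver glycogen 20.5 to 28.4 and 19.2 to 28.2 (exact permutation p = 0.468). Body weight at the clamp was 35.1 to 48.5 and 35.4 to 55.0 (exact permutation p = 0.508). The share of citrate made from pyruvate was 9.74% ± 2.54 and 9.08% ± 2.03 (SD, n = 5 each; exact permutation p = 0.683). Pyruvate carboxylase flux is recorded as 1.71 for M18 and as 22.6 to 57.4 for the other 9 mice. The difference in means for this trait was 1.04, and 9.47 without M18 (adjusted permutation p = 0.921 and 0.436). Fat percent was recorded for 4 high-flux and 3 low-flux mice only (24.1 ± 8.98 and 30.4 ± 0.790, SD; exact permutation p = 0.229), and M9 had 11.1. The label is fat mass over the weight on leaving the metabolic cage, which was far from the clamp weight in M9 (34.2 and 46.7) and M6 (48.6 and 35.1), so it does not describe these mice at the clamp.

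No gene passed the test between the flux groups. Of 13880 genes tested with limma, 0 were called higher and 0 lower in high-flux livers at a Benjamini-Hochberg adjusted p under 0.05, which is 0% of the genes in each direction. The smallest adjusted p was 0.964. At an unadjusted p under 0.05 there were 148 higher and 185 lower, 2.40% of the genes tested. Without M14, 13666 genes were tested, again with 0 called in each direction (0%), and 222 higher and 203 lower at an unadjusted p under 0.05 (3.11%). A count model on the recovered reads, limma-voom, called 0 genes and had 186 higher and 137 lower at an unadjusted p under 0.05. The same 10 livers gave the 647 calls for kit quoted above, so calls were possible among 10 livers. Those calls do not show what size of difference between the flux groups would have been called.

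The intervals say which sizes of difference these livers leave room for. For 12641 of the genes (91.1%) the 95% interval of the difference lay within a 2-fold change in either direction, and for 10014 (72.1%) within a 1.5-fold change. These intervals are per gene and are not adjusted for the number of genes. They are of scaled TPM + 0.5, so for genes near the filter a 2-fold limit stands for a larger change of TPM. The median difference over all genes was -0.02 on the log2(scaled TPM + 0.5) scale, and 44.6% of the genes were higher in high-flux livers. Values of all 5 high-flux livers lay above all 5 low-flux livers in 6 genes (0.0432%) and below them in 9 genes (0.0648%). Among these, Cfhr2, a complement factor H-related protein made by the liver, was at 294 to 415 scaled TPM in the high-flux and 428 to 601 in the low-flux group. Its difference was -0.33 ± 0.14 (SE), and -0.20 without M14. Tmem44, a membrane protein near the limit of the filter, was at 0.642 to 0.780 and 0.429 to 0.627, with a difference of 0.30 and 0.31 without M14. Cfhr2 and Tmem44 were chosen after their values were seen, and neither passed the adjusted test.

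The transcript of citrate synthase itself showed no detectable difference. Cs was at 99.9, 72.3, 82.5, 61.9 and 110 scaled TPM in the high-flux livers M5, M6, M9, M14 and M18, and at 102, 86.9, 77.3, 78.3 and 73.3 in the low-flux livers M7, M8, M15, M16 and M17. The groups overlapped over most of their range, and the mouse with the highest flux, M14, had the lowest Cs. The difference was -0.08 ± 0.11 (SE), with a 95% interval from -0.32 to 0.17, and -0.01 without M14, with an interval from -0.25 to 0.23. Flux in the high-flux group was a mean of 3.11 against 2.48. Taking flux as a number, the slope of Cs was -0.07 log2 units per flux unit, with an interval from -0.39 to 0.24, and 0.05 without M14.

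The other enzymes of the cycle gave the same picture. None of the 18 genes was called in either direction, 5 had a positive and 13 a negative difference, and the median was -0.07 with M14 and 0.04 without it. All 18 intervals held 0, and the widest bounds were -0.64 and 0.57. Sdha, the catalytic subunit of succinate dehydrogenase, had the smallest p of the list, with 335, 309, 408, 229 and 514 scaled TPM in the high-flux livers and 519, 362, 376, 373 and 341 in the low-flux livers. Its difference was -0.26 ± 0.17 (SE) and -0.13 without M14. The AllPrep livers M18 and M7 had nearly the same Sdha and belong to different groups. Idh3a, the catalytic subunit of NAD-dependent isocitrate dehydrogenase, was at 39.4, 34.1, 27.3, 18.0 and 27.7 against 28.6, 22.2, 23.9, 25.5 and 25.5. Here M14 was the lowest of the 10, and without it the difference was 0.35, with an interval from 0.05 to 0.66 and an unadjusted p of 0.0281. As a slope on flux without M14 Idh3a had 0.57 log2 units per flux unit and an unadjusted p of 0.00545. It was the only one of the 18 under 0.05, where 4.91% of all genes were. It did not pass the adjusted test there, where no gene did. The slope was positive for 5 of the 18 genes with M14 and for 14 without it.

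**Figure D3:**
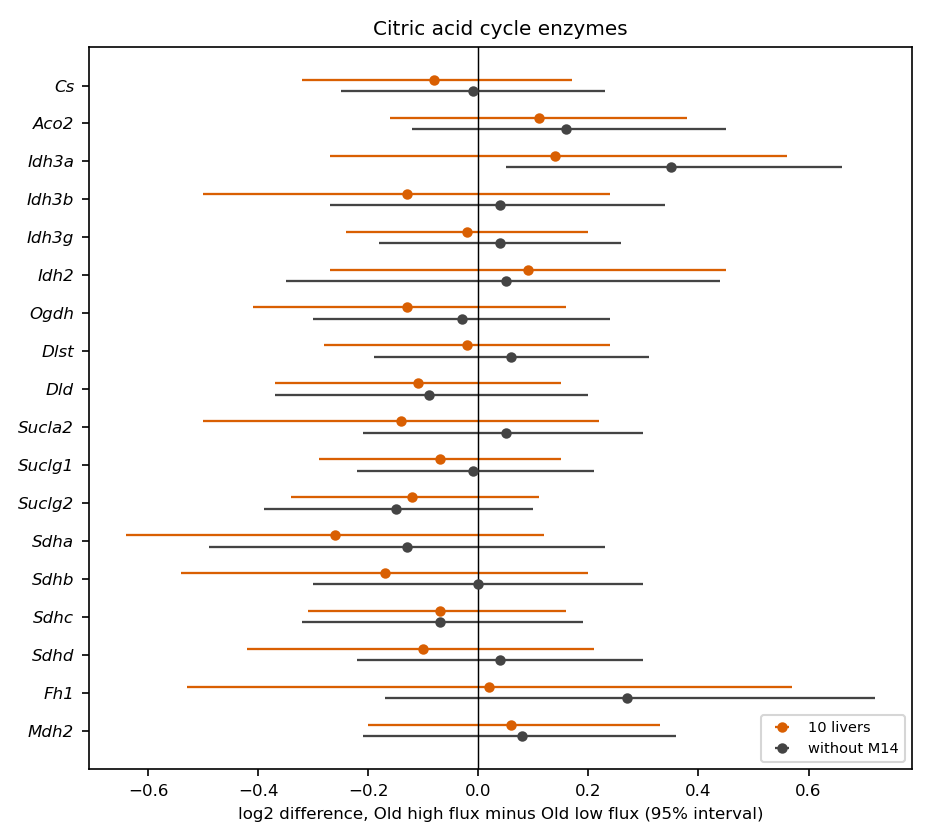
Difference between Old high-flux and Old low-flux livers for 18 citric acid cycle genes, on the log2(scaled TPM + 0.5) scale, with 95% intervals, for all 10 livers (orange) and without M14 (grey). All 18 intervals of the 10 livers hold 0, and without M14 that of Idh3a lies above 0, from 0.05 to 0.66.

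Mitochondrial genes as a whole were close between the groups. Over 6 lists, of cycle enzymes, pyruvate entry, respiratory chain subunits, mitochondrial ribosomal proteins, biogenesis and dynamics, and fatty acid oxidation, 223 genes were tested and 0 called. The 95% interval lay within a 2-fold change for 221 of them and within a 1.5-fold change for 206. At an unadjusted p under 0.05, 1 gene was higher and 0 lower, where 2.4% of all genes passed in either direction. The gene was Mrpl52, a protein of the large mitochondrial ribosomal subunit, with a difference of 0.32 ± 0.12 (SE) and 0.25 without M14. Respiratory chain subunits (72 tested) had a median of -0.03, and 0.05 without M14. Ndufb6, a complex I subunit with the smallest p among them, was at 54.6 to 108 in the high-flux and 91.7 to 117 in the low-flux livers (difference -0.33 ± 0.16, SE, and -0.14 without M14). Ppargc1a, the coactivator PGC-1alpha that drives mitochondrial gene expression, was low in all livers, at 1.75 to 2.74 and 1.81 to 2.62 scaled TPM. Its difference was 0.03, with an interval from -0.27 to 0.34, and 0.09 without M14. Its relative Ppargc1b was at 2.38 to 5.02 and 3.74 to 5.38 (-0.38 ± 0.19, SE, and -0.22 without M14). The table lists no protein-coding gene of mitochondrial DNA, so those subunits were not analysed here.

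Pdk4, the kinase that holds back pyruvate dehydrogenase, was spread widely within each group. It was at 70.4, 24.1, 31.3, 41.9 and 51.4 scaled TPM in the high-flux livers and at 25.8, 20.8, 14.5, 125 and 61.0 in the low-flux livers. M16, a low-flux liver, was the highest and M15, another, the lowest. The difference was 0.23 (0.27 without M14), with an interval from -1.04 to 1.5, so that a 2-fold difference in either direction lies inside it. Pyruvate entry genes (14 tested, 0 called) had a median of -0.08, and 0.01 without M14. Mpc1, a subunit of the mitochondrial pyruvate carrier, was at 64.0 to 95.9 and 57.4 to 76.1 (0.16 ± 0.13, SE, and 0.04 without M14).

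Fatty acid oxidation genes (20 tested, 0 called) had a median of -0.08, which was 0.08 without M14. Cpt1a, which admits long-chain fatty acids to the mitochondrion, was at 594, 645, 493, 380 and 483 in the high-flux livers and 588, 547, 445, 449 and 492 in the low-flux livers. The sets interleave, and the difference was -0.01, with an interval from -0.36 to 0.34, and 0.11 without M14. Acsl1, which activates fatty acids, was at 313 scaled TPM in M14 and at 741 to 1220 in the other 9 livers, and its difference went from -0.38 to 0.05 without M14. Targets of the nuclear receptor PPAR-alpha (24 tested, 0 called) ran from -1.69 to 1.05. Their median was -0.12 with M14, 0.19 without it and 0.43 in AllPrep livers. In RNeasy livers without M14, where M6 is the only high-flux liver, it was -0.06. Cyp4a31, a fatty acid hydroxylase, was at 36.6, 49.9, 19.2, 93.1 and 15.7 against 16.9, 15.8, 15.4, 19.9 and 31.1. Of the 5 low-flux livers 4 lay between 15.4 and 19.9, and the high-flux livers M9 and M18 were among them. The difference was 1.05 ± 0.34 (SE, unadjusted p = 0.0116; adjusted p = 0.964 in limma), and 0.73 without M14. Cyp4a12a, of the same family and male-biased in mice, went the other way, at 177, 78.6, 148, 7.58 and 93.3 against 250, 135, 187, 218 and 172. Its difference was -1.69 ± 0.66 (SE, unadjusted p = 0.0284), and -0.77 without M14.

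Genes of glucose production overlapped between the groups. Pck1, the cytosolic enzyme that starts gluconeogenesis from oxaloacetate, was at 3120, 3620, 2650, 1000 and 3210 in the high-flux livers and at 2410, 3430, 2440, 4210 and 3130 in the low-flux livers. All but M14 lay in the same range, and the difference was -0.34 ± 0.36 (SE) with M14 and 0.10 without it. G6pc, the last enzyme of glucose release, was at 398 to 632 and 419 to 784 (-0.09, interval -0.52 to 0.34, and -0.06 without M14). The gluconeogenesis list (17 tested, 0 called) had a median of -0.08, and -0.02 without M14. It was -0.13 in AllPrep livers, and 0.28 in RNeasy livers without M14, where M6 is the only high-flux liver. Of the glycogen genes (15 tested, 0 called; median -0.03, and -0.13 without M14), Ppp1r3c, a subunit that brings a phosphatase to glycogen, was at 44.8 to 140 and 90.9 to 155 (-0.60 ± 0.29, SE, and -0.36 without M14). Ppp1r3g, a related subunit, was at 1.46, 3.00, 0.730, 0.851 and 1.15 against 0.347, 0.439, 0.212, 9.54 and 5.14. The low-flux livers M16 and M17 were the highest and the other 3 the lowest, and the difference was 0.09, with an interval from -1.42 to 1.60, and 0.52 without M14.

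The insulin signalling list (28 tested, 0 called) had a median of -0.02 with M14 and -0.01 without it. Insr, the insulin receptor, was at 62.8 to 95.7 and 70.1 to 105 scaled TPM (-0.13, interval -0.44 to 0.17, and -0.04 without M14). Irs2, an adaptor that insulin represses through FOXO1, was at 19.6 to 30.6 and 16.6 to 40.8 (0.20, interval -0.33 to 0.72, and 0.21 without M14). Igfbp1, another gene that insulin represses, was at 276, 184, 71.9, 1290 and 104 against 39.3, 114, 26.9, 246 and 141. Its highest value was that of M14, and its difference was 1.62 ± 0.77 (SE, unadjusted p = 0.0618), with an interval from -0.10 to 3.33, and 0.92 without M14. Igfbp2, a related binding protein, was at 616, 851, 345, 657 and 438 against 300, 270, 370, 609 and 591, and here M14 was not extreme. Its difference was 0.61 ± 0.20 (SE, unadjusted p = 0.0124; adjusted p = 0.964 in limma) and 0.70 without M14, with 0.67 in AllPrep and 0.55 in RNeasy livers. Ceacam1, which promotes the uptake and breakdown of insulin by hepatocytes, was at 117, 113, 122, 60.4 and 144 against 150, 153, 99.5, 101 and 108. The difference was -0.28 ± 0.16 (SE) and -0.11 without M14. The insulin clearance list (5 tested, 0 called) had a median of -0.06, and -0.04 without M14.

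**Figure D4:**
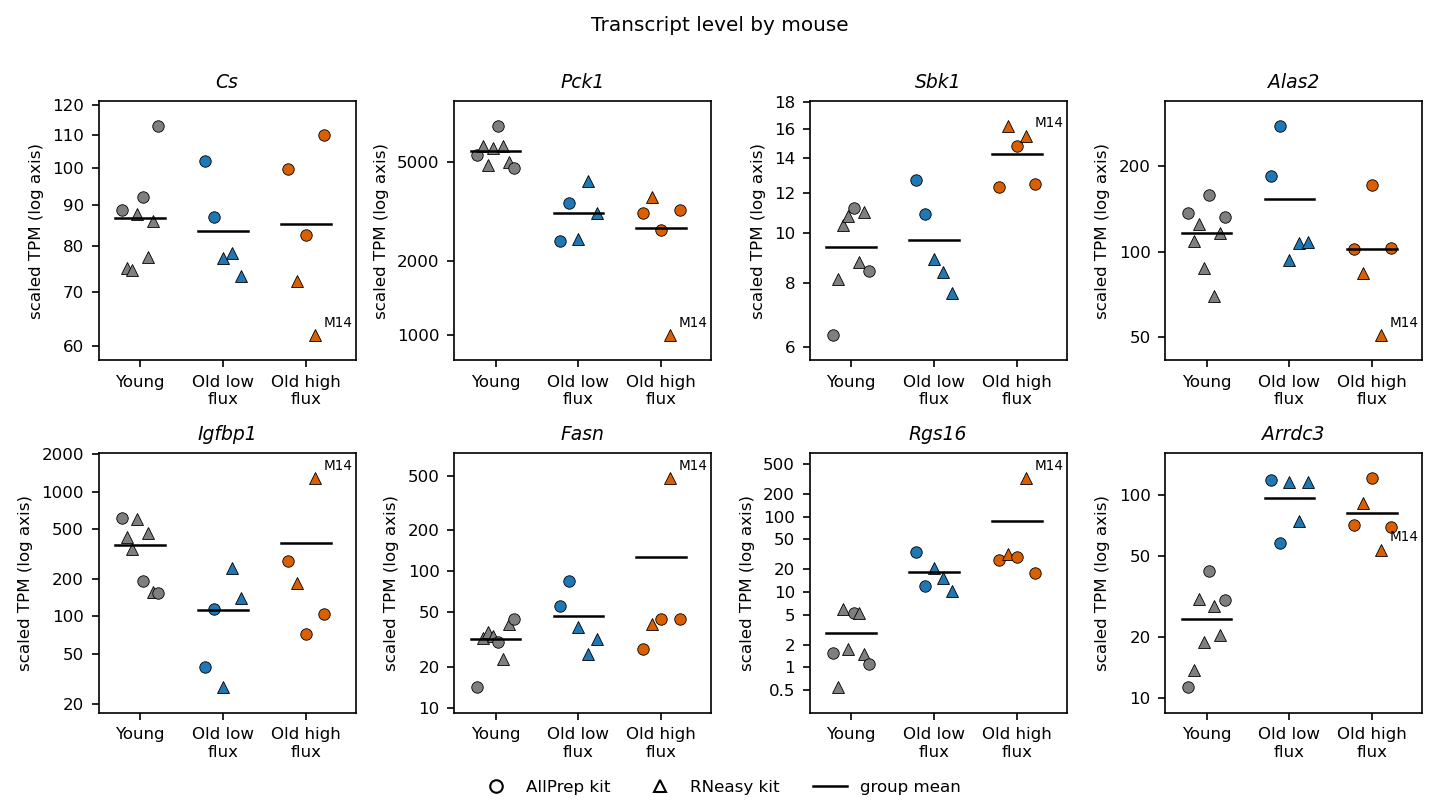
Scaled TPM of 8 genes by mouse on log axes in Young, Old low-flux and Old high-flux livers; circles are AllPrep and triangles RNeasy livers, and the line is the group mean. M14 is the lowest Old liver for Cs, Pck1, Alas2 and Arrdc3 and the highest for Igfbp1, Fasn and Rgs16. The other 4 high-flux livers overlap with the low-flux livers in all 8 genes.

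No gene of lipid synthesis was called. Fasn, fatty acid synthase, was at 26.8, 41.5, 44.5, 483 and 44.4 in the high-flux and 56.0, 85.2, 39.1, 24.8 and 32.0 in the low-flux livers. The difference was 0.64 with M14 and -0.38 without it, and both intervals held 0 (-0.99 to 2.28 and -1.04 to 0.27). Srebf1, the transcription factor SREBP-1, was at 13.3 to 42.5 and 11.6 to 46.5 (-0.20, and -0.70 without M14). Without M14 its interval, from -1.35 to -0.04, lay below 0 (unadjusted p = 0.0404), and the gene was not called. Scd1, a fatty acid desaturase, was at 7750, 3880, 8550, 2890 and 5990 against 11400, 12500, 5480, 3050 and 4820 (-0.53 ± 0.24, SE, unadjusted p = 0.0514, and -0.49 without M14). The 2 highest values were those of the low-flux AllPrep livers M7 and M8. The list of lipogenesis and glycolysis (25 tested, 0 called) had a median of 0.04, and -0.12 without M14. At an unadjusted p under 0.05 it had 0 members in either direction with M14, and 1 higher and 4 lower without it. Of all 13666 genes tested without M14, 222 were higher and 203 lower at that threshold.

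Cholesterol synthesis enzymes lay mostly on one side, with none called. Of 25 tested, 24 had a positive difference with M14 and 24 without it, against 44.6% and 45.3% of all genes. Such a lean was not particular to this list. Of 74 cytosolic ribosomal protein genes tested, 66 were positive with M14 and 69 without it. The members of a list share regulators and livers, so they are not independent counts. The median of the cholesterol synthesis list was 0.47 with M14 and 0.18 without it. The mean log2 level over the list was 5.0, 5.37, 5.34, 6.18 and 5.19 in the high-flux livers M5, M6, M9, M14 and M18, and 5.06, 5.54, 4.75, 4.48 and 4.90 in the low-flux livers M7, M8, M15, M16 and M17. Young livers were at 4.65 to 5.33. The groups overlapped through M7 and M8, the low-flux AllPrep livers, and within that kit the median was -0.13. Within RNeasy it was 1.05, and 0.64 without M14, where M6 is the only high-flux liver. A difference of effect between the kits was tested for each gene as an interaction, and no gene passed (0 called, smallest adjusted p 0.679 in limma). That test is per gene, with 2 or 3 livers of a kit in each group. It cannot decide whether a shift shared by the list differs between the kits. Hsd17b7, an enzyme of the pathway, was at 35.0, 53.3, 29.6, 44.7 and 27.2 against 25.2, 25.9, 26.9, 33.1 and 37.1, with a difference of 0.42 ± 0.13 (SE, unadjusted p = 0.00743; adjusted p = 0.964 in limma) and 0.43 without M14. It was positive within both kits, at 0.25 and 0.60. Cyp51, lanosterol demethylase, was at 48.1 to 128 and 29.3 to 55.8 (0.76 ± 0.29, SE, and 0.40 without M14). Insig1, which holds back the SREBP factors, was at 111, 164, 186, 292 and 138 against 112, 139, 90.6, 107 and 126 (0.61 ± 0.24, SE, and 0.35 without M14).

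The genes with the smallest p are named whatever they do, since none was called. Sbk1, a protein kinase, was at 12.3, 16.2, 14.8, 15.5 and 12.5 in the high-flux livers and at 12.7, 10.9, 8.93, 8.41 and 7.65 in the low-flux livers. Only M7 among the low-flux livers reached the high-flux range, and the difference was 0.52 ± 0.15 (SE, unadjusted p = 0.00557; adjusted p = 0.964 in limma), with 0.45 without M14, 0.16 in AllPrep and 0.89 in RNeasy livers. Josd2, a deubiquitinase, had a difference of 0.34 (0.31 without M14), and Apoc2, the activator of lipoprotein lipase, had 0.45 (0.33 without M14). RNeasy livers had higher levels of both genes than AllPrep livers, so each was compared within a kit. For Apoc2 the AllPrep livers were at 8.69, 6.81 and 6.55 against 6.5 and 5.25, and the RNeasy livers at 15.0 and 20.1 against 12.2, 9.28 and 12.8. Those sets do not overlap within either kit, although the groups overlap as a whole, and the unadjusted p was 0.0112. Apoc2 was chosen for its small p in a model with kit, so this separation is no further evidence. The share of all genes separated in this way was not counted, and Apoc2 was not called.

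On the lower side, Alas2, the first enzyme of heme synthesis in red blood cell precursors, had the smallest p of the named genes. It was at 102, 84.2, 171, 50.9 and 103 in the high-flux livers and at 184, 277, 93.4, 107 and 108 in the low-flux livers, a difference of -0.76 ± 0.20 (SE, unadjusted p = 0.00383; adjusted p = 0.964 in limma) and -0.65 without M14. The hemoglobin genes, which mark blood left in the tissue, varied widely within both groups. Hba-a1 was at 210, 497, 1580, 421 and 129 against 1230, 2590, 57.3, 614 and 928. The 5 red blood cell markers had a summed level of 564 to 5610 and 421 to 10300, and a median difference of -0.82 (-1.17 without M14), with -2.27 in AllPrep and 0.62 in RNeasy livers. Their part in the Alas2 value was not tested. Ranbp6, an importin-like protein, was at 4.76 to 8.88 and 7.40 to 9.56 (-0.44 ± 0.13, SE, and -0.34 without M14). Polr3k, a subunit of RNA polymerase III, had -0.27 (-0.24 without M14), and Cmtm6, a membrane protein that stabilises PD-L1, had -0.29 (-0.27 without M14). Haus2, a subunit of the augmin complex of the spindle, had -0.28 (-0.25 without M14), and Gpr155, a lysosomal cholesterol sensor, had -0.57 (-0.40 without M14).

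Leaving out M14 brought other genes to the smallest p. Nr1i3, the nuclear receptor CAR, was at 67.9, 113, 76.8 and 82.6 in the remaining high-flux livers and at 43.5, 40.5, 103, 110 and 111 in the low-flux livers, with 39.9 in M14. The difference without M14 was 0.54, and it was 0.08 with it. In AllPrep livers the difference was 0.84. In the remaining RNeasy livers, where M6 is the only high-flux liver, it was 0.07. Susd4, a complement inhibitor, followed the same pattern, with a difference of 0.03 with M14 and 1.11 without it, 1.45 in AllPrep and 0.57 in RNeasy livers without M14, and with 1.71 scaled TPM in M14 itself against 4.62 to 33.2 in the other 9. On the lower side without M14 were Aqp8, a water channel (-0.71, and -0.26 with M14), Zbtb16, a transcription factor (-0.59, and -0.28 with M14), Asap2 (-0.43, and -0.31 with M14), and Pprc1, a coactivator related to PGC-1alpha (-0.34, and -0.13 with M14). Pprc1 was at 3.44, 3.95, 4.20 and 4.61 in the 4 high-flux livers and at 5.55, 5.09, 4.98, 5.07 and 5.05 in the low-flux livers. These sets do not overlap, and M14 lay above them all at 7.23. Pprc1 was chosen for its small p without M14, so the lack of overlap is no further evidence. The share of all genes without overlap among these livers is not given. The smallest adjusted p in limma without M14 was 1.

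Lists tied to sex, zone and proliferation had medians that depended on M14. In bulk tissue fewer cells of a type and less RNA per cell cannot be told apart. Male-biased hepatic genes, which pulsatile growth hormone maintains, had a median of -0.61 over 21 tested, with 18 negative, and -0.12 without M14. Cyp4a12a, given above, is one of them. Female-biased genes had a median of 0.30 over 14 tested. Over the 13 that could be tested in both fits it was 0.38 with M14 and 0.03 without it. Cyp2b9, a female-biased cytochrome, ranged from 1.39 to 249 in the high-flux and from 1.06 to 104 in the low-flux livers. Its difference was 0.65 with M14 and -1.04 without it, and both intervals held 0 (-2.48 to 3.78 and -3.16 to 1.08). Pericentral genes (19 tested, 0 called) had a median of -0.24 with M14 and 0.15 without it. Glul, glutamine synthetase of the innermost pericentral hepatocytes, was at 1050, 577, 854, 256 and 840 against 966, 699, 898, 787 and 524. The summed level of the pericentral list was 3340 in M14, against 16100 to 22500 in the other high-flux and 12600 to 18400 in the low-flux livers.

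Cell cycle genes (21 tested, 0 called) had a median of 0.64. Of these, 16 could also be tested without M14, and the other 5 passed the filter on low values only with that liver. Over the 16 the median was 0.60 with M14 and 0.07 without it. Mki67, a marker of dividing cells chosen after its values were seen, was at 4.56, 1.07, 4.84, 10.6 and 1.09 against 2.20, 2.37, 0.841, 0.854 and 0.691. M14, M5 and M9 were above every low-flux liver, M6 and M18 were not, and the difference was 1.01 ± 0.55 (SE) with M14 and 0.31 without it. The 6 markers of lipid-associated macrophages summed to 339 in M14, to 56.4 to 89.6 in the other high-flux and to 55.0 to 150 in the low-flux livers. Their median difference went from 0.32 to -0.51 when M14 was left out. Stress response genes (28 tested, 0 called) had a median of 0.13, and 0.19 without M14. Atf4, a transcription factor of the integrated stress response, was at 113, 122, 102, 141 and 97.3 against 77.3, 82.0, 108, 143 and 113 (0.25 ± 0.11, SE, and 0.24 without M14). Of the 52 lists, 51 had a member that could be tested, and none of those 51 had a called member.

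**Figure D5:**
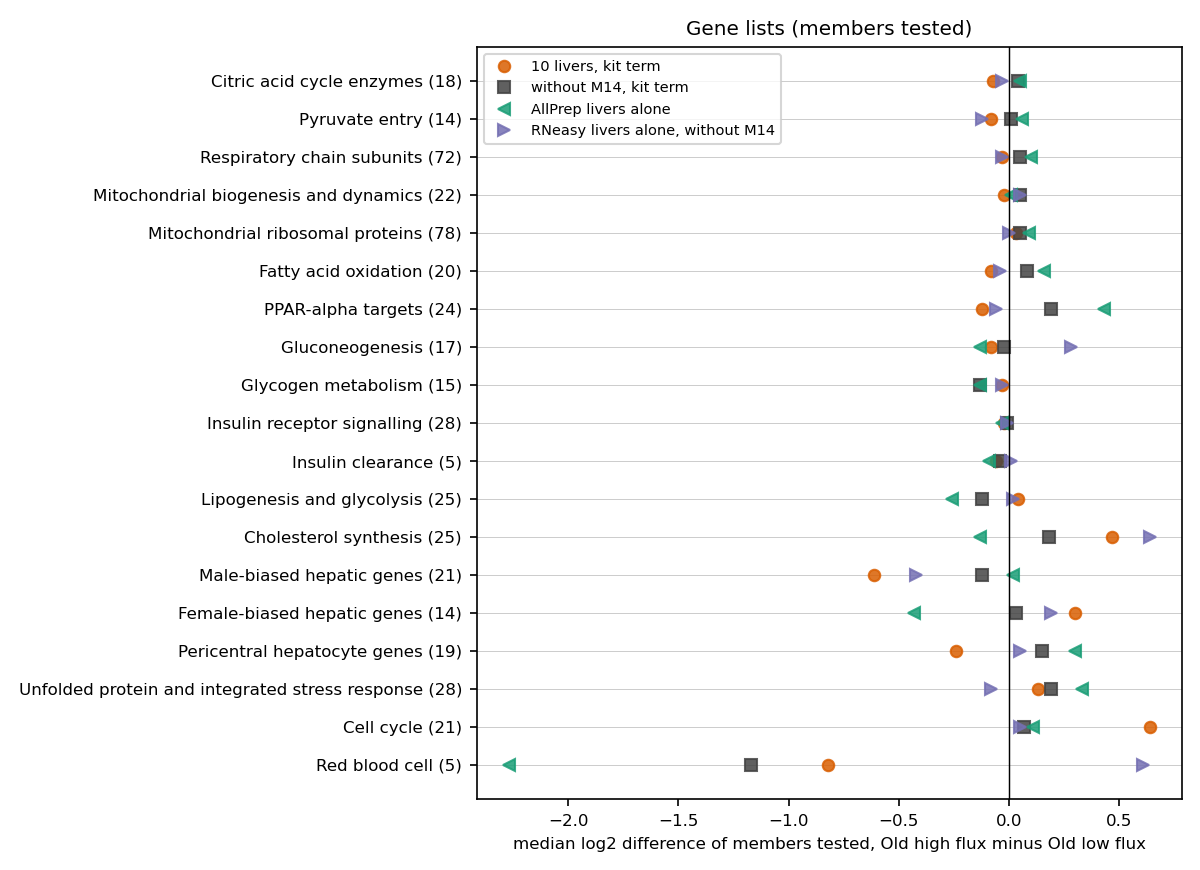
Median log2 difference (Old high flux minus Old low flux) of the tested members of 19 gene lists, for all 10 livers, without M14, in AllPrep livers alone, and in RNeasy livers alone without M14; the number tested is in brackets. In RNeasy livers without M14 the high-flux group is M6 alone. The mitochondrial lists stay near 0 in each setting. Lists farther from 0, such as cholesterol synthesis, cell cycle and red blood cell markers, shift without M14 or with the kits taken apart.

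Each Old group was also set beside the 8 Young livers. Both comparisons use the same Young livers, so their calls are not independent and no overlap is given. High-flux livers had 130 genes higher (0.902%) and 153 lower (1.06%) than Young livers, of 14411 tested. Low-flux livers had 33 higher (0.229%) and 26 lower (0.18%). On TPM as deposited, without scaling between libraries, the counts were 100 higher and 46 lower for high-flux and 17 and 10 for low-flux livers. Without M14 the order turned around: high-flux livers then had 71 higher (0.496%) and 57 lower (0.398%) of 14307 tested, and low-flux livers 213 higher (1.49%) and 221 lower (1.54%), although M14 is no low-flux liver. M14 enters the low-flux comparison only through the estimates of spread and of the kit term, which all livers share, and through the filter. Leaving out the high-flux liver M6 gave 312 higher and 392 lower for the high-flux group, and leaving out M9 gave 41 and 42. For the low-flux group, leaving out M15 gave 2 higher and 1 lower, and leaving out M7 gave 4 and 2. Leaving out a Young liver moved the counts too, for example to 66 and 65 in high-flux and 5 and 3 in low-flux livers without M2. The direct test of the groups against each other, with 0 calls, is the test of whether they differ.

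For 4 genes the values of both Old groups are given beside the Young livers. The 4 genes were chosen with earlier results of these data known. Genes without overlap between Old and Young livers were not counted, so no share over all genes can be given. Arrdc3, an alpha-arrestin, was at 71.5, 91.2, 121, 53.7 and 69.5 in the high-flux and 119, 58.2, 116, 74.7 and 116 in the low-flux livers, with 11.3, 24.3 and 42.4 as the lowest, median and highest Young values. It rose in both groups against Young, by 1.75 (adjusted p = 0.0103 in limma) and 2.02 (adjusted p = 0.00755 in limma). The low-flux call was lost without M15 (1.92, adjusted p = 0.0516). The difference between the Old groups was -0.25, with an interval from -0.86 to 0.37, and -0.04 without M14. Rgs16, a regulator of G protein signalling, was at 26.7, 32.1, 28.7, 324 and 17.9 against 34.3, 12.0, 21.0, 15.2 and 10.4, and the Young livers at 0.538 to 5.91. Every Old liver was above every Young liver. The difference from Young was 4.09 for the high-flux group (adjusted p = 0.00554 in limma, and 0.00516 without M14) and 2.68 for the low-flux group (adjusted p = 0.0555 in limma, and 0.00715 without M14). Between the Old groups it was 1.48, with an interval from -0.06 to 3.03, and 0.55 without M14.

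Pck1 fell below Young by 1.18 in high-flux livers (adjusted p = 0.0283 in limma) and by 0.78 without M14 (adjusted p = 0.0299 in limma). The call was lost without M9 (adjusted p = 0.0657) and without the Young livers M2 (0.0506) or M10 (0.0584). The low-flux value was -0.85 (adjusted p = 0.124 in limma, and 0.00941 without M14). All 10 Old livers, at 1000 to 4210 scaled TPM, were below the Young range of 4730 to 7010. Cyp2b9 was above Young by 5.16 in the high-flux group (adjusted p = 0.0205 in limma, 0.0569 without M14 and 0.0611 without M9) and by 4.29 in the low-flux group (adjusted p = 0.0720, and 0.0165 without M14). Young livers were at 0.0313 to 0.888 scaled TPM, and every Old liver was above them. Pck1 and Cyp2b9 too were chosen with earlier results known, and the share of all genes so separated was not counted. Of the 18 cycle enzymes, 0 were called in either group against Young, and without M14 1 was called lower in low-flux livers. Of the 21 male-biased genes tested, 10 were lower in high-flux and 1 in low-flux livers, where 1.06% and 0.18% of all genes were. Without M14 it was 6 and 6, beside 0.398% and 1.54% of all genes. Of 15 female-biased genes, 6 and 1 were higher, beside 0.902% and 0.229% of all genes, and 2 and 6 without M14, beside 0.496% and 1.49%. For Cs the differences from Young were -0.12 and -0.06, with adjusted p-values of 0.405 and 0.784 in limma.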

How the data were processed

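Liver RNA of 18 mice, each a separate animal per the labels, was sequenced after ribosomal RNA depletion. The table deposited by the authors holds TPM, reads per gene length scaled to 1 total per library, for 18946 genes. STAR 2.7.9a, Subread and featureCounts and the builds GRCm39 and mm10 are named, per the submitters' processing notes, without a role for each. The sources used here do not state the strand setting or the annotation. For this reason no coordinates are given, and genes with near-identical copies or antisense partners are uncertain. Values of a gene stood in whole-number ratios, from which whole reads were recovered for all 18946 genes (largest distance from a whole number 2e-08). These gave the depth and the limma-voom alternative. No pair of Old libraries agreed within sampling noise (lowest chi-square per degree of freedom 79.1).

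Each mouse's traits, group and number were read off the labels, and the groups share no number. TPM was scaled between libraries by trimmed log ratios (TMM, with 30% of ratios and 5% of levels trimmed). A gene had to reach 0.5 TPM in 5 or more libraries. The model was limma 3.58.1 (R 4.3.3), fitted to log2(scaled TPM + 0.5), with a variance trend and kit as a term, in the 10 Old libraries. The comparison with Young used all 18. Adjusted p-values under 0.05 (Benjamini-Hochberg, over all genes tested) were calls. Differences are on the log2(scaled TPM + 0.5) scale and understate changes of low genes. The procedure was tested on simulated data. Trait tests used Python 3.11.15 and pandas 2.3.3, plots matplotlib 3.10.9.

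The groups, gene lists and rules were chosen with earlier results of these data known. Named genes were, at a mean log2 level of at least 2, those called, filled up to 6 per direction by smallest p, with and without M14, up to 4 per list described by smallest p, and 16 genes whatever their result. Some of these 109 are given, and 1 of the 16 is not reported here. Alternatives changed the filter, pseudocount, scaling, kit term, weights and model, took flux or basal insulin as a number, and left out each library in turn.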

Additional observations from a re-analysis of the deposited data

Results flagged for a closer look

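In each group of 5 mice (4 for fat percent in the high-flux group), a highest or lowest value could be singled out. The rule was a gap to the nearest of the others that was large for the group's range, by Dixon's test at the 95% level. Of 129 groups looked at, 11 had such a value. Chance gives about 5% for unrelated groups. These groups share mice, and many of the genes were chosen by their values, so the 11 cannot be set against that rate. Of the 11, M14 held 4: Fasn at 483, Igfbp1 at 1290, Rgs16 at 324 and Cyp51 at 128 scaled TPM in the high-flux group, each the highest. Without M14 the differences of these genes were -0.38, 0.92, 0.55 and 0.40. In the high-flux group M5 also had the lowest pyruvate dehydrogenase flux, 0.167, and M9 the highest Hba-a1, 1580 scaled TPM. In the low-flux group M15 had the largest suppression of glucose production, 63.6%. M7 had a suppression of glycerol turnover of -1.70%, a rise during insulin infusion, as well as the highest Sdha, 519, and the highest Pprc1, 5.55 scaled TPM. M17 had the highest Cyp4a31, 31.1 scaled TPM. The causes were not tested.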

How the results depend on the processing

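The count of genes called between the flux groups was 0 in limma under each of 25 other settings and under 5 more chosen after seeing the data, and so was that of the kit-by-flux interaction, also added then. RNeasy livers alone without M14 have M6 as the only high-flux liver, so the adjusted p of that setting is not given. Over the others the smallest adjusted p in limma was 0.142, with flux as a number and M14 left out. With flux as a number 184 genes were higher and 204 lower at an unadjusted p under 0.05 (2.8% of the genes tested). With basal insulin as a number there were 303 and 216 (3.74%). When M14 was left out too, flux gave 258 and 413 (4.91%). Basal insulin then gave 485 and 472 (7%), with a smallest adjusted p of 0.201 in limma. No named gene was called under any other setting, but 63 of the 109 changed sign in at least 1, and 12 did without M14. No trait passed under any other setting, and the difference in pyruvate carboxylase flux changed sign with the mouse left out (-4.46 to 9.47). Counts against Young moved most. On TPM as deposited 100 genes were higher and 46 lower in high-flux livers, against 130 and 153 after scaling, and 17 higher and 10 lower in low-flux livers. Without the kit term there were 80 higher and 95 lower in high-flux and 9 higher and 10 lower in low-flux livers. Leaving out 1 liver at a time gave 41 to 312 higher and 42 to 392 lower in high-flux livers, and 2 to 213 higher and 1 to 221 lower in low-flux livers. The lowest low-flux counts came without M15. The cause was not tested. No paired analysis was possible because the groups share no replicate number. With 5 livers a group, small differences were not detectable. The median 95% interval reached 0.31 to either side, per gene and without adjustment. It does not give the size of difference that would be called, since Igfbp1, with a difference of 1.62, was not called.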
